A study of Mus musculus with 28 samples.

Results

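The genes described here are 38 markers of brain endothelial cells, of the pericytes and smooth muscle that wrap them, and of the blood-brain barrier, measured in the hippocampus of aged mice given human plasma. They were taken by gene symbol from a list, and each was represented by the row of the array with the highest mean. Of the 38 genes, 37 were found among the 22256 symbols of the table and 36 were above the intensity filter, out of 15781 genes that were tested. These 36 comprised 28 endothelial genes and 8 genes of pericytes and smooth muscle, together called mural cells. Ly6c1, an endothelial surface marker, lay below the filter with log2 intensities between 2.35 and 3.78, and Ly6a was not analysed here.

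Whole hippocampi came from mice of the NSG strain, an immunodeficient background without mature lymphocytes, whose mean age was 14 months. All mice had received 6 intravenous injections of human umbilical cord plasma, of plasma from young donors, of plasma from old donors, or of phosphate-buffered saline (PBS) as the vehicle. Each of the 4 groups had 7 arrays, so there were 28 in all. The values are log2 intensities after RMA, the authors' background correction, normalization and summary of the probes, and a difference of 1 on this scale is a doubling. Nothing in the labels ties an array to a mouse of its own, so the p-values refer to the variation among arrays, which may be partly technical. In whole tissue, fewer cells of a type and less RNA per cell cannot be told apart.

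Brain endothelial cells are sealed to each other by tight junctions and make few vesicles, so nutrients, hormones and drugs cross the barrier mainly through transporters in their membranes. Pericytes sit on the capillary wall within the basement membrane and help to keep the barrier closed, and smooth muscle cells take their place around arterioles. Growth factor receptors of the VEGF and angiopoietin families keep the endothelium alive and set its permeability. The capillaries of the hippocampus have been studied as a route by which factors in blood could reach ageing neurons.

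The promoters of 5 endothelial genes are shown because 4 of them, Kdr, Eng, Cldn5 and Flt1, varied together from array to array and the remaining one, Mfsd2a, did so once the arrays that stand apart were left out. Each line holds the 250 bases before the RefSeq start of the gene, 5′ to 3′ on the strand of the gene, from GRCm38.p6, a build used for these sequences only. Kdr lies at chr5:75978456-75978705 on the minus strand, Eng at chr2:32646345-32646594 on the plus strand, Cldn5 at chr16:18776597-18776846 on the plus strand, Flt1 at chr5:147726012-147726261 on the minus strand and Mfsd2a at chr4:122961189-122961438 on the minus strand. Capitals mark GGAA, or TTCC for the other strand, the core that ETS factors such as Erg bind.
Kdr: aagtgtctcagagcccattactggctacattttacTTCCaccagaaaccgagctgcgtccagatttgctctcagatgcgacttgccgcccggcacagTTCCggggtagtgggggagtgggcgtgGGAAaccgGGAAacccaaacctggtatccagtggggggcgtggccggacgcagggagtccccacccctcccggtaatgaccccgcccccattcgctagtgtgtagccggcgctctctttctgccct
Eng: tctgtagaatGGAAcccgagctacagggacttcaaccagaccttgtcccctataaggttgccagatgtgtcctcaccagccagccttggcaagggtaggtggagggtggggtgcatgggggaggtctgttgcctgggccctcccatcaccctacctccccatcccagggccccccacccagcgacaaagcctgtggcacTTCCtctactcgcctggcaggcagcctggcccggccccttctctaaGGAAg
Cldn5: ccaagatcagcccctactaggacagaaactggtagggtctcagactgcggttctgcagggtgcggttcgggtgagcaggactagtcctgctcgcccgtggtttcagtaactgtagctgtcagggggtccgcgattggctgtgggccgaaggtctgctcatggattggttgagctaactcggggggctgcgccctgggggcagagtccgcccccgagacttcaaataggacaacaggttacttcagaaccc
Flt1: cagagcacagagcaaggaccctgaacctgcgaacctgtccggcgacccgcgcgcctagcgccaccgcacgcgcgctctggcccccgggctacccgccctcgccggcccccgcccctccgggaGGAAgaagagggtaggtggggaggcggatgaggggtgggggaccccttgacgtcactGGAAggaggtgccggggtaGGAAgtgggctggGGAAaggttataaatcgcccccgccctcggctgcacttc
Mfsd2a: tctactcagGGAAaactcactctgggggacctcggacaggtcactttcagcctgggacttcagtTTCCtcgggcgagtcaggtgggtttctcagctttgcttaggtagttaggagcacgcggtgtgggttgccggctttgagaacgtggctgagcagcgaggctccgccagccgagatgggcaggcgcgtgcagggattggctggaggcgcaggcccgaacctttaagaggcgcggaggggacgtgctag
The windows of Kdr and Flt1 each held 4 copies of the GGAA core on either strand, that of Eng held 3, that of Mfsd2a held 2 and that of Cldn5 held 0. The longer form AGGAAG, read on both strands and containing the core, occurred 2 times each in the windows of Eng and Flt1 and 0 times in the other 3. ACAAT, read on both strands, a core that SOX factors bind, occurred in none of the 5 windows. Across 32851 promoter windows of the same length in the table, 93.4% held GGAA, 29.5% AGGAAG and 27.7% ACAAT. Of the 36 barrier genes, 24 had a RefSeq promoter, with 30 windows in all, and GGAA occurred in 26 of those windows, AGGAAG in 12 and ACAAT in 5. These matches describe letters in the window only.

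Before the comparisons, the tissue and the arrays were examined. The array medians lay between 4.96 and 5.09, and any 2 arrays correlated across genes at r between 0.976 and 0.995. Young plasma array 7 was the highest or lowest of the 28 arrays for 27.7% of all genes and for 17 of the 36 barrier genes, 15 of them lowest. PBS array 4 was extreme for 6.08% of all genes and for 10 of the 36, all of them highest. The same PBS array had a mean of 7.61 over 14 interferon-stimulated genes, a level that none of the other 27 arrays approached, the highest of them being at 5.98. PBS array 6 had a mean of 7.55 over 6 thalamus markers, where the highest of the other arrays was at 6.41. It was extreme for 10.2% of all genes and for 1 of the 36, Sox17, and was kept in the main fits. Markers of choroid plexus, an epithelium next to the hippocampus with leaky vessels of its own, split the arrays into 13 with high and 15 with low levels. The high set held 3 cord plasma, 3 young plasma, 3 old plasma and 4 PBS arrays. The main counts, and the differences that moved most, are also given without the pair of arrays that stand apart, young plasma array 7 and PBS array 4.

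Plasma against the vehicle was compared first, to ask whether the barrier genes differed in level after human plasma. With limma and Benjamini-Hochberg adjustment over all 15781 genes, 0 of the 36 barrier genes passed an adjusted p of 0.05 for the 3 plasmas averaged and set against PBS, where 0.019% of all genes did. At an unadjusted p under 0.05 stood 1 of the 36, Pdgfrb, against 12.4% of all genes, 7.53% higher and 4.83% lower. The authors' deposited p-values, adjusted over all 23410 named rows, gave 0 of 37 genes, Ly6c1 included, for each plasma. Unadjusted they gave 1 of 37 with cord plasma (9.27% of the named rows), 0 with young plasma (8.16%) and 3 with old plasma (10.7%). The 36 differences had a median of 0.0011 and ran from a low of -0.18 in Vcam1 to a high of 0.17 in Pdgfrb, and the median over all genes was 0.0023. Of these differences 18 were above 0 and 18 below, and 51.3% of all genes were above 0. Without the pair of arrays that stand apart, 24 of the 36 lay above 0 (51.6% of all genes), with a median of 0.05 over the 36 against 0.0027 over all genes. In that setting 0 passed after adjustment in limma and 3 stood at an unadjusted p under 0.05, namely Pdgfrb, Emcn and Tek (11.8% of all genes). The pair was chosen after seeing the values, PBS array 4 being highest for 10 of the 36 genes and young plasma array 7 lowest for 15. Leaving them out therefore tends to raise plasma minus PBS for these genes, and the shift is no separate result. The 95% intervals of the 36 genes lay between -0.42 and 0.36, and no gene's interval reached beyond those bounds.

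**Figure D1:**
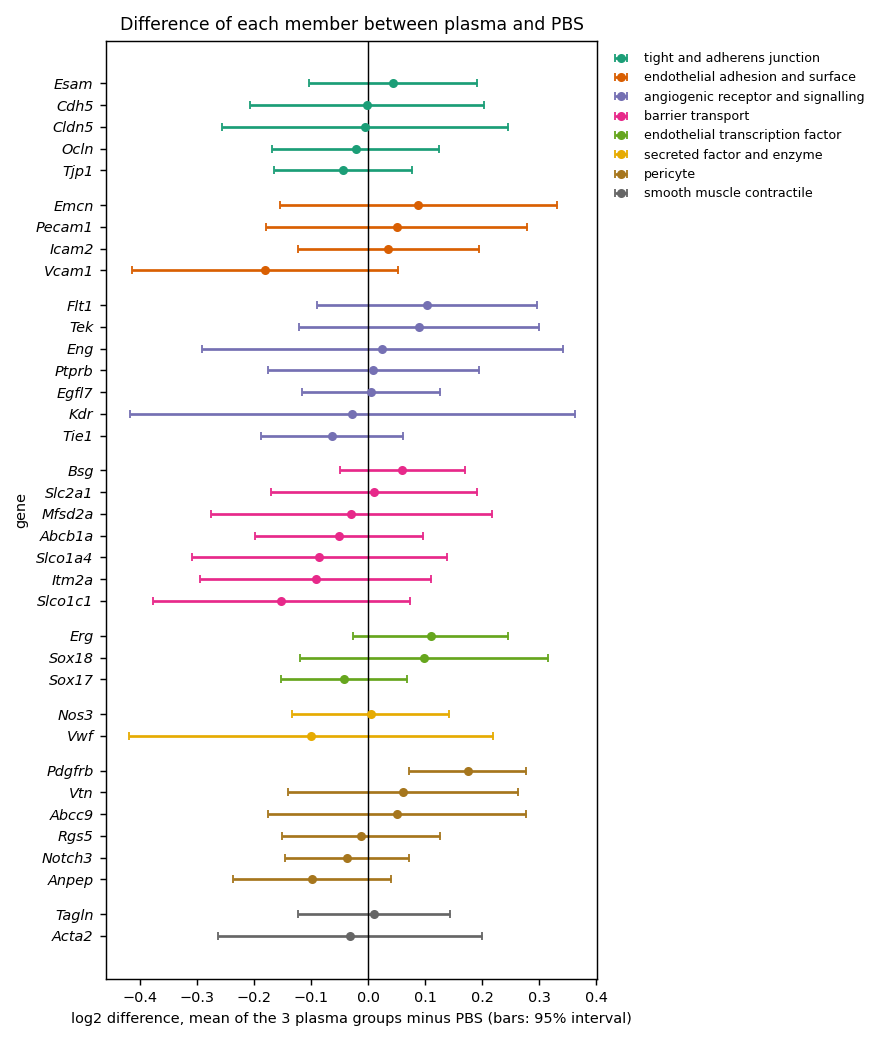
Difference in log2 intensity of each of the 36 barrier genes between the mean of the 3 plasma groups (21 arrays) and PBS (7 arrays), grouped and coloured by role, with points for the limma estimate and bars for its 95% interval. The bars cross the line at 0 for every gene but Pdgfrb, whose difference was 0.17.

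Each plasma was also compared with PBS on its own in limma. With cord plasma 0 of the 36 passed the adjusted threshold (0% of all genes), 1 stood at an unadjusted p under 0.05 (8.74% of all genes, 4.96% higher and 3.78% lower), and 23 lay above 0 (53.3% of all genes). With young plasma 0 passed (0% of all genes), 1 stood at an unadjusted p under 0.05 (11.2% of all genes, 6.07% higher and 5.11% lower), and 19 lay above 0 (49.2%). With old plasma 0 passed (0%), 1 stood at an unadjusted p under 0.05 (10.8%, of which 6.62% higher and 4.15% lower), and 16 lay above 0 (52.5%). The single gene was Pdgfrb each time, higher after plasma, and the 3 comparisons share their PBS arrays. In the moderated F-test over the 4 groups, 0 of 36 passed after adjustment (0.00634% of all genes) and 1, again Pdgfrb, stood at an unadjusted p under 0.05 (9.83% of all genes). No barrier gene had a plasma group wholly above PBS, where 0.12% of all genes did with cord plasma, 0.165% with young plasma and 0.228% with old plasma. None had one wholly below PBS either, where 0.076% of all genes did with cord plasma, 0.0507% with young plasma and 0.0951% with old plasma. With all 21 plasma arrays as 1 set, 0 of the 36 lay wholly above PBS (0.00634% of all genes) and 0 wholly below (0% of all genes).

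Junction genes came first among the roles. Cldn5 encodes the main claudin of the brain endothelial tight junction. Its log2 intensity ran from 6.19 to 7.14 (median 6.48) in cord plasma arrays, from 6.43 to 7.04 (median 6.58) in young plasma arrays, from 6.38 to 7.37 (median 6.52) in old plasma arrays and from 6.30 to 7.23 (median 6.51) in PBS arrays. The ranges overlapped almost fully, and in old plasma 1 array, at 7.37, stood above the other 6, which reached 6.73. For the plasma mean against PBS the difference was -0.01 ± 0.12 (SE, limma adjusted p = 0.991), and 0.11 ± 0.12 without the 2 arrays that stand apart (adjusted p = 0.773). Cdh5, the VE-cadherin of the adherens junction, differed by -0.0020 ± 0.10 (0.11 ± 0.09 without the pair), Ocln, a second tight junction strand protein, by -0.02 ± 0.07, and Tjp1, the scaffold ZO-1, by -0.04 ± 0.06. Esam, an adhesion molecule of the same contacts, differed by 0.04 ± 0.07 (0.12 ± 0.07 without the pair). All 5 intervals include 0, and the widest of them, that of Cldn5, runs between -0.26 and 0.25.

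Surface and adhesion genes were next. Pecam1, the platelet endothelial adhesion molecule used to mark vessels, ran from 7.10 to 7.72 (median 7.35) with cord plasma, from 7.10 to 7.69 (median 7.26) with young plasma, from 7.08 to 7.74 (median 7.14) with old plasma and from 7.02 to 7.90 (median 7.13) with PBS. The PBS arrays thus spanned the values of every plasma array. Its difference for the plasma mean was 0.05 ± 0.11, and 0.14 ± 0.11 without the pair of arrays that stand apart. Vcam1 encodes the adhesion molecule that inflamed endothelium shows to leukocytes, and it is also made by choroid plexus. It ran from 7.34 to 8.03 (median 7.69) with cord plasma, from 7.18 to 8.17 (median 7.32) with young plasma, from 7.44 to 7.92 (median 7.50) with old plasma and from 7.25 to 8.20 (median 7.80) with PBS. The PBS median was the highest of the 4, within ranges that overlapped. The difference was -0.27 ± 0.14 with young plasma (limma unadjusted p = 0.0620, adjusted p = 0.470) and -0.18 ± 0.11 for the plasma mean (adjusted p = 0.540). Without the pair of arrays that stand apart these values were -0.16 ± 0.14 and -0.10 ± 0.12.

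Emcn, the endomucin of capillary and venous endothelium, was the endothelial gene with the smallest p in cord plasma against PBS. It ran from 6.27 to 7.09 (median 6.64) with cord plasma, from 5.47 to 6.88 (median 6.52) with young plasma, from 6.29 to 6.76 (median 6.40) with old plasma and from 6.13 to 6.72 (median 6.44) with PBS. The value of 5.47 was that of young plasma array 7, the lowest of all 28 arrays by a wide margin. The cord plasma difference was 0.25 ± 0.15 (limma unadjusted p = 0.0972, adjusted p = 0.635), and 0.30 ± 0.10 without the pair of arrays that stand apart (unadjusted p = 0.00760, adjusted p = 0.397). That pair was chosen after seeing the values of these genes, so the lower p is no separate result. Icam2, a constitutive endothelial adhesion molecule, differed by 0.04 ± 0.08 for the plasma mean.

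Receptors and signalling genes of the VEGF and angiopoietin families followed, with Kdr the most variable gene of the 36 within groups. Flt1, VEGF receptor 1, ran from 7.81 to 8.38 (median 7.93) with cord plasma, from 7.47 to 8.39 (median 7.97) with young plasma, from 7.84 to 8.39 (median 7.95) with old plasma and from 7.71 to 8.22 (median 7.82) with PBS. The PBS median was the lowest of the 4 and the ranges overlapped, with a plasma mean difference of 0.10 ± 0.09 (adjusted p = 0.698 in limma). Kdr, VEGF receptor 2, the main signalling receptor for VEGF on endothelium, ran from 6.87 to 8.21 (median 7.23) with cord plasma, from 6.70 to 7.73 (median 7.06) with young plasma, from 6.85 to 8.10 (median 7.08) with old plasma and from 6.69 to 8.45 (median 7.16) with PBS. Its lowest and highest arrays of all were both PBS arrays. The interval of its plasma mean difference, -0.42 to 0.36, was the widest of the 36. That difference was -0.03 ± 0.19 over all arrays and 0.19 ± 0.17 without the pair that stand apart (adjusted p = 0.706 in limma). Eng, the co-receptor endoglin, had its highest value, 9.20, in PBS array 4, and differed by 0.03 ± 0.15. Without the pair of arrays the difference of Eng was 0.22 ± 0.13 for the plasma mean (limma adjusted p = 0.540) and 0.33 ± 0.16 for cord plasma (unadjusted p = 0.0496, adjusted p = 0.578). Ptprb, the phosphatase that restrains the angiopoietin receptor, differed by 0.01 ± 0.09, and by 0.10 ± 0.08 without the pair. Tek, the angiopoietin receptor Tie2, differed by 0.09 ± 0.10 and, without the pair of arrays, by 0.14 ± 0.07 (limma unadjusted p = 0.0464, adjusted p = 0.410). Because the pair was chosen after seeing the values, these p-values of Eng and Tek are no separate result.

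Transport genes of the barrier followed. Slc2a1, the glucose transporter GLUT1, ran from 9.66 to 10.20 (median 9.97) with cord plasma, from 9.75 to 10.44 (median 10.004) with young plasma, from 9.85 to 10.46 (median 9.98) with old plasma and from 9.78 to 10.47 (median 9.95) with PBS. The 4 medians were almost equal, and the plasma mean difference was 0.01 ± 0.09. Slco1a4, an organic anion transporter, ran from 6.37 to 6.92 (median 6.74) with cord plasma, from 5.64 to 7.09 (median 6.53) with young plasma, from 6.36 to 6.86 (median 6.75) with old plasma and from 6.59 to 6.92 (median 6.62) with PBS. Young plasma held both the lowest and the highest array, and its difference from PBS was -0.24 ± 0.13 with array 7 (limma adjusted p = 0.496) and -0.07 ± 0.11 without the pair of arrays. Abcb1a, the drug efflux pump P-glycoprotein, ran from 7.54 to 7.81 (median 7.66) with cord plasma, from 7.37 to 7.86 (median 7.66) with young plasma, from 7.43 to 7.94 (median 7.67) with old plasma and from 7.42 to 8.02 (median 7.77) with PBS. Its plasma mean difference was -0.05 ± 0.07.

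Mfsd2a carries lysophospholipids with omega-3 fatty acids into the brain and restrains vesicle transport. It ran from 7.63 to 8.13 (median 8.004) with cord plasma, from 7.74 to 9.21 (median 7.90) with young plasma, from 8.02 to 8.57 (median 8.07) with old plasma and from 7.90 to 8.31 (median 8.11) with PBS. The 9.21 of young plasma array 7 and the 8.57 of old plasma array 1 stood clear of the other 26 arrays. The plasma mean difference was -0.03 ± 0.12. Slco1c1, a thyroid hormone transporter, ran from 8.16 to 9.74 over all arrays and differed by -0.15 ± 0.11 (-0.03 ± 0.07 without the pair), Itm2a, a membrane protein enriched in brain endothelium, by -0.09 ± 0.10, and Bsg, the basigin that chaperones lactate transporters, by 0.06 ± 0.05.

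**Figure D2:**
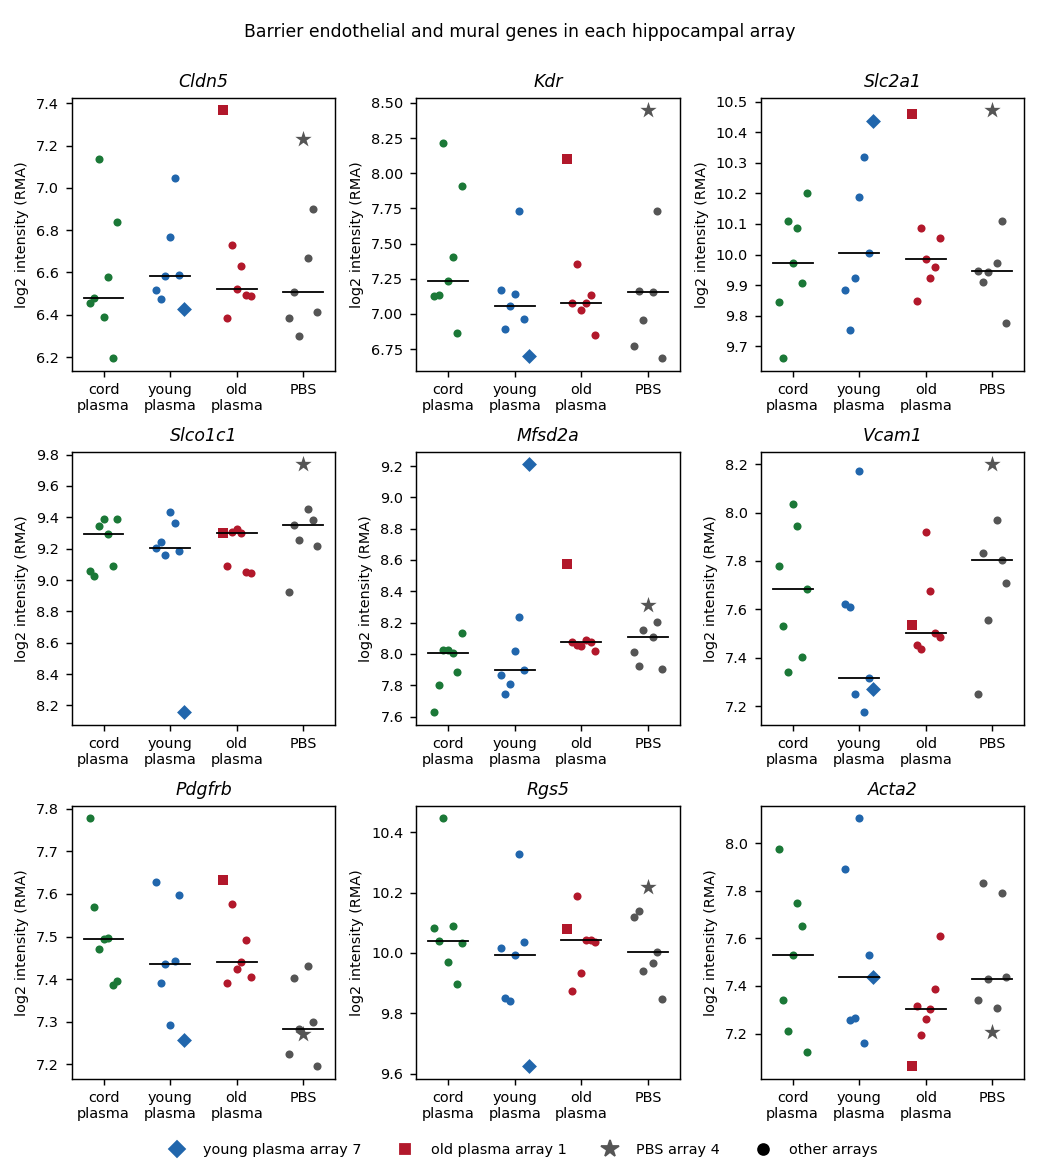
RMA log2 intensity of 9 barrier genes in each of the 28 arrays (1 point an array, 7 a group, black line at the group median), with cord plasma, young plasma and old plasma left of PBS. Diamonds, squares and stars mark young plasma array 7, old plasma array 1 and PBS array 4, which lie at the edge of their groups for several genes. The Pdgfrb medians of the 3 plasma groups lie between 7.43 and 7.49 and that of PBS at 7.28.

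Transcription factors and secreted products of endothelium had 5 tested genes. Erg, the ETS factor that maintains endothelial identity, ran from 6.18 to 6.56 (median 6.36) with cord plasma, from 6.25 to 6.53 (median 6.37) with young plasma, from 6.10 to 6.77 (median 6.38) with old plasma and from 6.02 to 6.48 (median 6.25) with PBS. The PBS median was the lowest of the 4, and the plasma mean difference was 0.11 ± 0.07 (limma unadjusted p = 0.109, adjusted p = 0.519). Sox18, a vascular SOX factor, had the third smallest p of the 36 in old plasma against PBS, with a difference of 0.21 ± 0.13 (adjusted p = 0.600 in limma). It ran from 5.28 to 5.84 (median 5.58) with cord plasma, from 4.95 to 6.00 (median 5.56) with young plasma, from 5.62 to 6.14 (median 5.63) with old plasma and from 5.25 to 5.83 (median 5.46) with PBS. The old plasma arrays began above the PBS median and overlapped the upper PBS arrays. Vwf, the clotting protein stored in endothelial granules, ran from 5.89 to 7.04 (median 6.27) with cord plasma, from 5.66 to 6.51 (median 6.01) with young plasma, from 5.86 to 6.88 (median 6.12) with old plasma and from 5.84 to 7.17 (median 6.08) with PBS. Its plasma mean difference was -0.10 ± 0.16 and 0.06 ± 0.15 without the pair of arrays that stand apart. Nos3, the endothelial nitric oxide synthase, differed by 0.0042 ± 0.07.

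Pdgfrb, the receptor through which endothelial PDGF-B recruits and keeps pericytes, had the smallest p of the 36 in every comparison with PBS. Its log2 intensity ran from 7.39 to 7.78 (median 7.49) with cord plasma, from 7.26 to 7.63 (median 7.43) with young plasma, from 7.39 to 7.63 (median 7.44) with old plasma and from 7.20 to 7.43 (median 7.28) with PBS. Of the 21 plasma arrays, 20 lay above the PBS median and 13 above the highest PBS array, made up of 5 cord plasma, 4 young plasma and 4 old plasma arrays. The groups therefore overlapped, by the lower arrays of each plasma.

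The difference of Pdgfrb for the plasma mean was 0.17 ± 0.05 on the log2 scale, or 1.13-fold (limma unadjusted p = 0.00167, adjusted p = 0.174). It ranked 152 of 15781 genes by p in that comparison. With cord plasma it was 0.21 ± 0.06 (unadjusted p = 0.00183, adjusted p = 0.326), with young plasma 0.13 ± 0.06 (unadjusted p = 0.0390, adjusted p = 0.417) and with old plasma 0.18 ± 0.06 (unadjusted p = 0.00707, adjusted p = 0.280), all from limma. In the authors' deposited table the unadjusted p-values of Pdgfrb were 0.00415 with cord plasma, 0.0545 with young plasma and 0.00294 with old plasma. The difference passed no adjusted threshold, and its adjusted p ran between 0.105 and 0.308 when any 1 array was left out. Leaving out the pair of arrays that stand apart gave 0.18 ± 0.05 in limma (adjusted p = 0.209). Between plasmas it was 0.03 ± 0.06 for cord against old, -0.05 ± 0.06 for young against old and 0.08 ± 0.06 for cord against young.

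Tissue markers that differ between the same groups are set beside Pdgfrb. All 6 markers of neocortex, which borders the dissected hippocampus, had a plasma mean above PBS, 4 of the 6 at an unadjusted p under 0.05 and 0 after adjustment in limma. Their mean ran from 7.53 to 8.27 (median 7.85) with cord plasma, from 7.78 to 8.40 (median 8.10) with young plasma, from 7.65 to 8.35 (median 7.93) with old plasma and from 7.60 to 7.83 (median 7.67) with PBS. Within groups, Pdgfrb and the cortex mean correlated at r = 0.12 over the 28 arrays (permutation p = 0.572, adjusted p = 0.854 over 324 relations), and r was 0.02 without the pair of arrays that stand apart. Meningeal fibroblasts also make Pdgfrb, and 10 of their 11 markers lay below PBS in the plasma mean, where 51.3% of all genes lay above PBS. Their mean ran from 6.21 to 7.29 (median 6.86) with cord plasma and from 6.32 to 7.18 (median 6.685) with young plasma. With old plasma it ran from 6.37 to 6.93 (median 6.65) and with PBS from 6.57 to 7.04 (median 6.93). Their correlation with Pdgfrb within groups is not given here. The mean of 6 astrocyte markers correlated with Pdgfrb at r = 0.53 and rho = 0.55 (permutation p = 0.00712, adjusted p = 0.128) and ran from 8.53 to 8.78 over all arrays. The part of these tissues and cells in the difference of Pdgfrb was not tested.

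None of the other 7 mural genes had an unadjusted p under 0.05 against PBS in limma, and their differences from PBS were not tested against that of Pdgfrb. Rgs5, a G-protein regulator abundant in brain pericytes, ran from 9.90 to 10.45 (median 10.04) with cord plasma, from 9.62 to 10.33 (median 9.99) with young plasma, from 9.87 to 10.19 (median 10.04) with old plasma and from 9.85 to 10.22 (median 10.005) with PBS. These ranges overlapped throughout, and the plasma mean difference was -0.01 ± 0.07. Vtn, vitronectin, an extracellular matrix protein made by brain pericytes, ran from 8.51 to 9.15 (median 8.64) with cord plasma, from 7.94 to 8.98 (median 8.70) with young plasma, from 8.45 to 8.77 (median 8.54) with old plasma and from 8.22 to 8.87 (median 8.58) with PBS. Its groups overlapped, with a difference of 0.18 ± 0.12 for cord plasma (limma adjusted p = 0.689) and of 0.06 ± 0.10 for the plasma mean. Abcc9, the sulfonylurea receptor subunit of the pericyte potassium channel, differed by 0.05 ± 0.11 for the plasma mean and 0.15 ± 0.14 for cord plasma, and Anpep, the aminopeptidase CD13 on pericytes, by -0.10 ± 0.07 for the plasma mean. Without the pair of arrays that stand apart, the cord plasma differences were 0.21 ± 0.14 for Abcc9, 0.20 ± 0.11 for Vtn and 0.21 ± 0.06 for Pdgfrb. In the authors' deposited table, Anpep with old plasma had an unadjusted p of 0.00493 and Notch3 0.0478, both lower than PBS. Acta2, smooth muscle actin, ran from 7.12 to 7.97 (median 7.53) with cord plasma, from 7.16 to 8.11 (median 7.44) with young plasma, from 7.06 to 7.61 (median 7.30) with old plasma and from 7.21 to 7.83 (median 7.43) with PBS. Its plasma mean difference was -0.03 ± 0.11, and that of Tagln, the actin-binding protein transgelin, was 0.01 ± 0.07.

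The plasmas were then compared with each other. Young and old plasma differ in the age of the donor, whereas cord plasma differs from both in its source as well. For cord against old plasma, 0 of the 36 passed after adjustment in limma (0% of all genes), 1 stood higher at an unadjusted p under 0.05 (4.2% of all genes, 1.88% higher and 2.33% lower) and 24 lay above 0 (49.7%). For young against old plasma, 0 passed (0.00634% of all genes), 1 stood higher at an unadjusted p under 0.05 (6.53% of all genes, 3.26% higher and 3.28% lower) and 9 lay above 0 (44.5%). For cord against young plasma, 0 passed (0%), 1 stood higher and 1 lower at an unadjusted p under 0.05 (7.22% of all genes, 3.98% higher and 3.24% lower), and 28 lay above 0 (53.5%). No barrier gene had groups that did not overlap, higher or lower, in any of these 3 comparisons. Of all genes 0.0253% did so higher and 0.0507% lower for cord against old, 0.0507% and 0.0444% for young against old, and 0.0444% and 0.038% for cord against young plasma. The 3 comparisons share groups, and young plasma array 7, the lowest array for 15 of the 36 genes, enters those that include young plasma directly and cord against old through the pooled spread. Leaving it out gave 4 genes at an unadjusted p under 0.05 for cord against old plasma, and the share of all genes in that setting is not given here. With PBS array 4 left out as well the count was also 4, beside 5.07% of all genes. Without the pair of arrays that stand apart, 17 of the 36 lay above 0 for young against old plasma (44.8% of all genes). In the same setting 22 lay above 0 for cord against young plasma (54%) and 24 for cord against old plasma (49.7%).

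Notch3, the Notch receptor of mural cells, was the 1 gene in cord against old plasma. It ran from 6.04 to 6.43 (median 6.27) with cord plasma, from 6.02 to 6.40 (median 6.19) with young plasma, from 5.98 to 6.18 (median 6.13) with old plasma and from 6.05 to 6.37 (median 6.17) with PBS. Old plasma had the lowest median and the lowest array of all 28, its other values overlapped those of each group, and the cord minus old difference was 0.15 ± 0.07 (limma unadjusted p = 0.0316, adjusted p = 0.999). Old plasma minus PBS was -0.11 ± 0.07. Tie1, the orphan receptor that pairs with Tie2, ran from 5.62 to 6.00 (median 5.85) with cord plasma, from 5.33 to 5.80 (median 5.60) with young plasma, from 5.46 to 5.91 (median 5.65) with old plasma and from 5.65 to 5.92 (median 5.75) with PBS. Its cord minus young difference was 0.17 ± 0.07 (limma unadjusted p = 0.0271, adjusted p = 0.672), and 0.12 ± 0.07 without the pair of arrays (unadjusted p = 0.0874). Cord minus old plasma gave 0.15 ± 0.07 for Tie1.

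Sox17, a SOX factor of arterial endothelium, ran from 5.76 to 6.11 (median 5.91) with cord plasma, from 6.00 to 6.19 (median 6.10) with young plasma, from 5.80 to 6.12 (median 5.97) with old plasma and from 5.83 to 6.31 (median 6.00) with PBS. The young plasma arrays were the tightest group and overlapped each of the others. The young minus old difference was 0.15 ± 0.07 (limma unadjusted p = 0.0348, adjusted p = 0.739), and the cord minus young difference was -0.15 ± 0.07 (unadjusted p = 0.0282, adjusted p = 0.672). Egfl7, a secreted factor of endothelial matrix, ran from 6.42 to 6.73 (median 6.55) with cord plasma, from 6.37 to 6.92 (median 6.74) with young plasma, from 6.55 to 6.89 (median 6.59) with old plasma and from 6.43 to 6.75 (median 6.68) with PBS. Cord minus old plasma was -0.12 ± 0.07 for Egfl7 (adjusted p = 0.999 in limma). Slco1a4 and Acta2, described above, differed by -0.23 ± 0.13 and 0.22 ± 0.14 for young minus old plasma, and Slco1a4 by 0.25 ± 0.13 for cord minus young plasma. Without young plasma array 7, the 2 differences of Slco1a4 were -0.09 and 0.11.

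Barrier genes varied widely between arrays of the same group. After the group means were removed, the SD of Kdr over the arrays was above that of 99.5% of all genes, and Vwf, Eng and Cldn5 lay above 99.1%, 99% and 97.9%. The median SD within groups was 0.225 for the 36 barrier genes and 0.126 for all genes. Pdgfrb had the narrowest spread of the 36, above 41.9% of all genes. Spreads depend on signal, and levels of different probe sets were not compared.

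This variation was shared among endothelial genes. Over the 28 arrays, the deviations from group means correlated with a median r of 0.40 over the 378 pairs of endothelial genes, 40.2% of them at 0.5 or more, against a median of 0.01 and 2.6% over all pairs of tested genes. Pairs of mural genes had a median r of 0.19 (28 pairs), and endothelial with mural pairs 0.17 (224 pairs). Without the pair of arrays that stand apart, the medians were 0.40 for endothelial, 0.15 for mural and 0.13 for mixed pairs, and 0.015 for all genes. Of the 630 pairs among the 36 genes, 211 were positively and 3 negatively correlated at an adjusted p under 0.05 by permutation within groups, adjusted over those pairs.

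Kdr and Eng were the most closely tied pair, with Pearson's r = 0.96 and Spearman's rho = 0.89 (permutation p = 1e-05, the smallest that 100000 resamples can give; adjusted p = 0.00018). Without the 2 arrays farthest from the median of Kdr, r was 0.92. Kdr lay high, by a gap of 0.34 between deviations, in 6 arrays: 2 cord plasma, 1 young plasma, 1 old plasma and 2 PBS arrays. Among the remaining 22 arrays Kdr and Eng correlated at r = 0.79 (permutation p = 6e-05, adjusted p = 0.00042 over 14 relations within sets of arrays). Kdr with Cldn5 gave r = 0.95 over 28 arrays and 0.74 among the 22, and Kdr with Flt1 gave 0.74 among the 22. Among the 6 high arrays r was 0.91 for Eng, 0.84 for Cldn5 and -0.46 for Flt1 (adjusted exact permutation p = 0.0344, 0.0753 and 0.428). Every group therefore held at least 1 of the arrays with high Kdr. The promoters of Kdr, Eng and Flt1 printed above hold GGAA cores and that of Cldn5 holds none.

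Abcc9, listed as a pericyte gene, varied with the endothelial genes. Its median r with the 28 endothelial genes was 0.61, second to Flt1 at 0.68, and with Flt1 itself it correlated at r = 0.89 and rho = 0.91 (adjusted permutation p = 0.00018). Rgs5 had a median of 0.51 and Vtn 0.45. The remaining mural genes had lower values, with Notch3 at a median of 0.155, Pdgfrb 0.14, Tagln 0.02, Anpep -0.003 and Acta2 -0.12. Among endothelial genes Egfl7 was lowest at -0.08, followed by Mfsd2a at 0.12, and Vcam1 and Tjp1 lay at 0.16 each. Without the pair of arrays that stand apart these medians were 0.022 for Egfl7, 0.55 for Mfsd2a, -0.007 for Vcam1, then the lowest, and 0.072 for Tjp1.

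**Figure D3:**
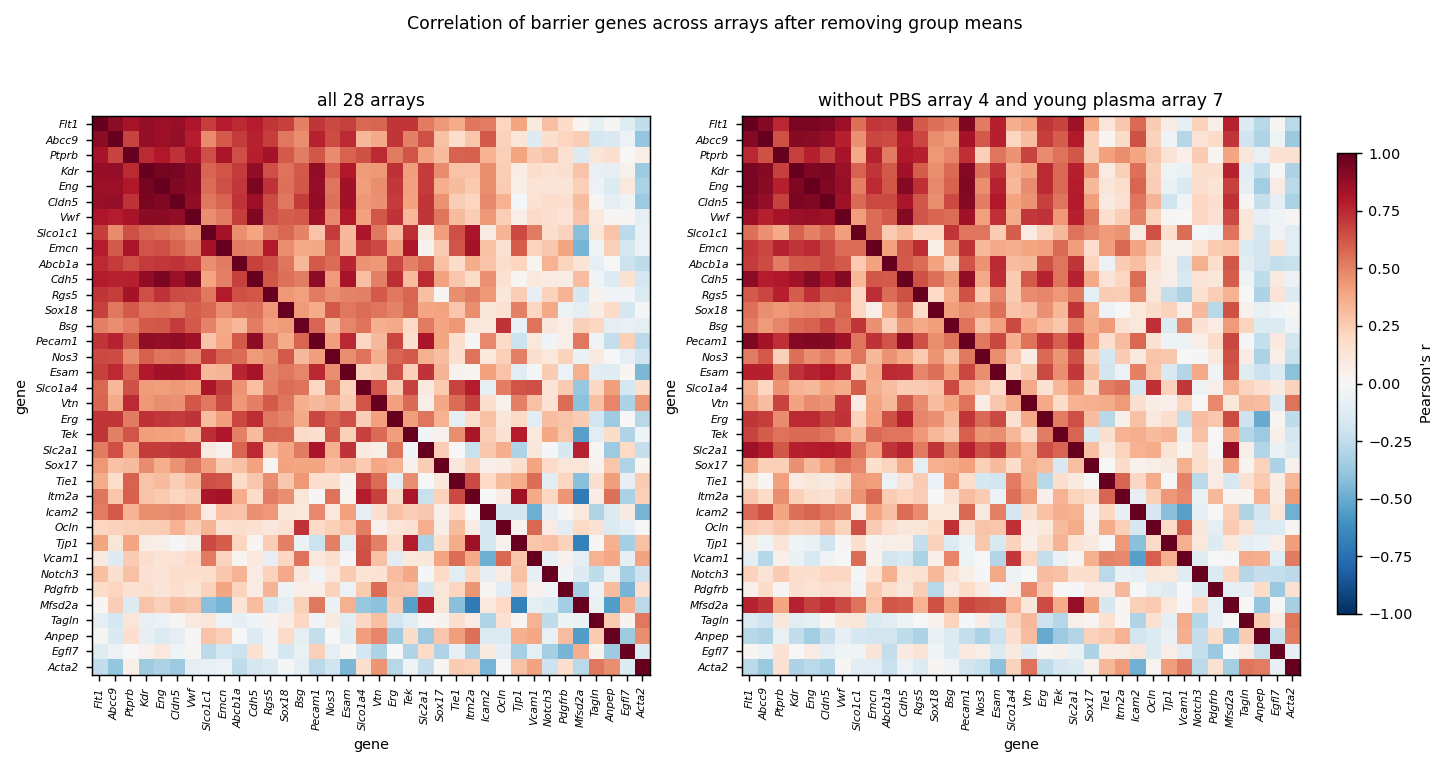
Pearson's r between deviations from group means for each pair of the 36 barrier genes, on a colour scale from -1 (blue) to 1 (red), over all 28 arrays at left and without PBS array 4 and young plasma array 7 at right, with genes in the same order. The red block at the top left holds Flt1, Abcc9, Kdr, Eng, Cldn5 and other endothelial genes in both panels, whereas the row of Mfsd2a is red over most of its length in the right panel only.

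For Mfsd2a, 1 array set the sign of some correlations. Its median r with the other 27 endothelial genes was 0.12 over all arrays and 0.55 without the pair that stand apart. With Slco1c1 it correlated at r = -0.42 but rho = 0.24 over 28 arrays (adjusted permutation p = 0.260), and at r = 0.60 without young plasma array 7. That array had the highest Mfsd2a of all, 9.21, and the lowest Slco1c1, 8.16. Mfsd2a and Slc2a1, both transporters, correlated at r = 0.77 with it (adjusted permutation p = 0.00018) and 0.87 without it. Tjp1 and Itm2a were the opposite case, with r = 0.85 over all arrays and 0.40 without that array.

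Over all 15780 other genes tested, those most like Kdr across the 28 arrays by Pearson's r of deviations were Eng, Eltd1, Cldn5, Acer2 and Vwf, followed by Cd93, Igfbp7, Cdh5, Pecam1 and Abcc9. Of these 10, 6 are barrier genes listed here. The r of Eltd1, an endothelial adhesion receptor, was 0.95 and that of Vegfa, the ligand of Kdr, 0.87, and Kcnj8, the pore of the channel that Abcc9 regulates, had 0.86. Of the 35 other barrier genes, 16 fell within the 157 genes that make up the top 1%. All 28 arrays contribute to each r, and they share the tissue dissection.

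**Figure D4:**
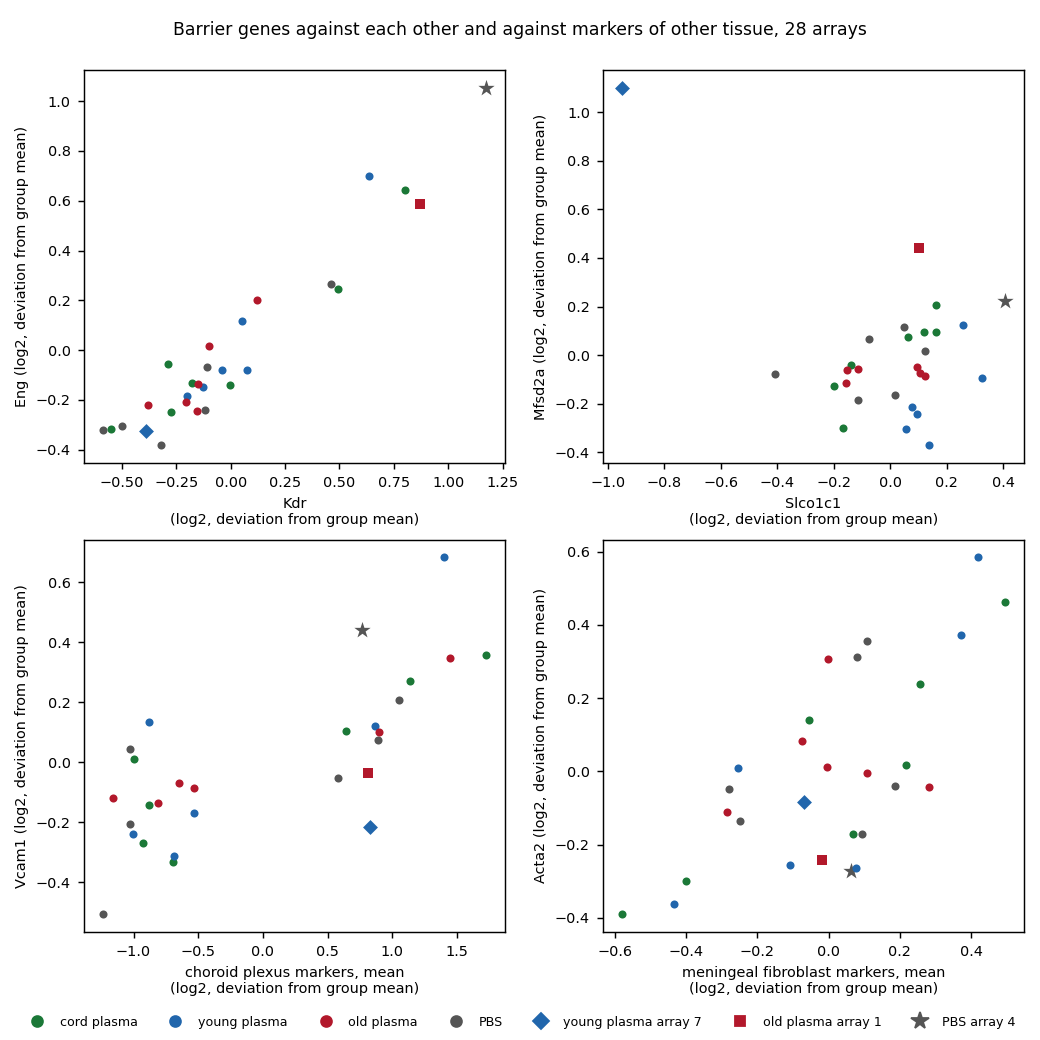
Deviation of each of the 28 arrays from its group mean, on log2 axes, for Eng against Kdr, Mfsd2a against Slco1c1, Vcam1 against the mean of choroid plexus markers and Acta2 against the mean of meningeal fibroblast markers; colours give the group. Eng follows Kdr at r = 0.96, young plasma array 7 lies alone at the top left of the Mfsd2a panel, and the choroid plexus markers fall into separate sets of 15 and 13 arrays.

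Markers of other cells and tissue moved with some barrier genes within groups. Of 324 relations between the 36 genes and 9 marker lists, 11 had an adjusted permutation p under 0.05, 9 positive and 2 negative. The choroid plexus list separates the arrays, so its relations are given within each set. In the 13 arrays with high choroid plexus markers, Vcam1 correlated with the list mean at r = 0.65 and rho = 0.59 (permutation p = 0.0172, adjusted p = 0.0344 over 14 relations). The same value for Ocln was r = 0.73 (adjusted permutation p = 0.0137) and for Bsg r = 0.48 (adjusted permutation p = 0.148). In the 15 arrays with low markers, r was 0.14 for Vcam1, 0.36 for Ocln and 0.20 for Bsg, and none passed (adjusted permutation p = 0.271 to 0.615). The list mean ran from 6.05 to 8.77 (median 6.35) with cord plasma, from 6.16 to 8.57 (median 6.63) with young plasma, from 6.04 to 8.65 (median 6.67) with old plasma and from 6.15 to 8.44 (median 7.97) with PBS. The list is split, and its higher PBS median goes with 4 PBS arrays in the high set against 3 of each plasma group. In the moderated F-test over the 4 groups, unadjusted p of the 11 markers ran from 0.599 (Folr1) to 0.971 (Sostdc1). Vcam1 also had its highest median in PBS, and the part of choroid plexus in its levels was not tested.

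Acta2 and Vcam1 each followed the 11 meningeal fibroblast markers, Acta2 at r = 0.69 and rho = 0.64 (adjusted permutation p = 0.0283) and Vcam1 at r = 0.69 and rho = 0.78 (adjusted permutation p = 0.0149). Without the 2 arrays farthest from the median of the list, r was 0.59 for Acta2 and 0.81 for Vcam1. Rgs5 followed 6 microglial markers at r = 0.67 and rho = 0.57 (adjusted permutation p = 0.0283), with 0.59 without young plasma array 7. Icam2 ran against 6 astrocyte markers at r = -0.60 and rho = -0.66 (adjusted permutation p = 0.0460). Slco1c1 ran against 6 neuronal markers at r = -0.57 and rho = -0.59 (adjusted permutation p = 0.0149), but at -0.27 when arrays were centred on their medians. The interferon list was related to Slco1c1, Tie1 and Slco1a4 at r = 0.45, 0.36 and 0.33, where its range comes mostly from PBS array 4. Without that array the 3 values were 0.58, 0.49 and 0.65.

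Vascular genes beyond the 38 gave no further calls. In 7 lists of other junction, transport, angiogenic, Wnt, activation, mural and basement membrane genes, 111 of 116 genes were tested. In limma 0 of the 111 passed after adjustment for any of the 7 comparisons. At an unadjusted p under 0.05, the plasma mean against PBS gave 4 higher and 4 lower, or 7.21% of the 111, against the 12.4% of all genes given above. The smallest p-values belonged to Art3, an ADP-ribosyltransferase family member listed with mural cells, at 0.14 ± 0.04 (limma unadjusted p = 0.00300, adjusted p = 0.191), to Nrp1, the VEGF co-receptor neuropilin 1, at -0.23 ± 0.07 (adjusted p = 0.193), and to Marveld2, the tricellulin of tight junctions, at 0.17 ± 0.06. Cord against PBS gave 4 higher and 1 lower (4.5% of the 111, 8.74% of all genes). Young against PBS gave 3 and 5 (7.21%, 11.2% of all genes), and old against PBS 3 and 5 (7.21%, 10.8% of all genes). The counts were 3 and 0 for cord against old (2.7%, 4.2% of all genes) and 2 and 3 for young against old (4.5%, 6.53% of all genes). For cord against young plasma they were 7 and 1 (7.21%, 7.22% of all genes).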

How the data were processed

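Hippocampal RNA of 28 samples was measured on Affymetrix whole-transcript arrays. The deposited table holds log2 intensities normalized with RMA per the submitters' processing notes, which give no version, and group means and p-values that the authors computed and deposited beside them. The genome build behind the array annotation is not given in the sources used here. Each gene took its row with the highest mean, and genes whose mean lay below the 30th percentile of the named rows, a log2 intensity of 4.68, were left out. Group means were fitted over all 28 arrays with limma 3.58.1 in R 4.3.3, with Benjamini-Hochberg adjustment over 15781 genes. Correlations over all arrays used deviations from group means, with 100000 two-sided permutations within groups, adjusted over 630 pairs or 324 relations. Those within sets of arrays kept the same deviations but permuted arrays across groups, adjusted over 14 relations, and so may include differences between groups. Both were run in Python 3.11.15 with NumPy, SciPy and pandas. The fit was tested on simulated data.

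The barrier genes and all lists were chosen with earlier results of these data known. Group values were given for the leading gene of each role, for the 3 genes of smallest unadjusted p in each comparison and for any gene called, and of other vascular genes for the 3 of smallest p with plasma. Array replicate numbers were not used to pair samples in the main fit. Of 42 same-numbered pairs, correlations of deviations ran from -0.189 to 0.414 and 12 were above 0.1. Array 4 nevertheless had the highest Vcam1 of its group, and high choroid plexus markers, in each group. Whether the numbers carry a link for such genes was not tested, and counts with the number as a block are given below. Alternatives changed the filter, the row of a gene, the scaling, the fit and the arrays. Splits of the arrays by Kdr or choroid plexus markers were made after seeing the values, by the widest gap, and serve only to give correlations within each set. Intensities of different probe sets were not compared, and the number of arrays limits the precision.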

Additional observations from a re-analysis of the deposited data

Results flagged for a closer look

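Within each group of 7 arrays, the highest or lowest value was set against the rest by Dixon's test at its 95% critical value of 0.568. Of 144 gene and group combinations, 18 held an array beyond it, and chance alone flags about 1 in 20. The share over all genes was not computed, and genes that vary together can be flagged in the same array. The count is therefore not read as particular to barrier genes. Young plasma array 7 gave 6 of them. It had log2 intensities of 5.47 for Emcn (6.49 to 6.88 in the other 6), 6.95 for Itm2a (7.94 to 8.23), 9.21 for Mfsd2a (7.74 to 8.24), 8.16 for Slco1c1 (9.16 to 9.43), 5.27 for Tek (6.23 to 6.46) and 8.66 for Tjp1 (9.22 to 9.40). It was low for 5 of these genes and high for the lipid carrier Mfsd2a.

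Old plasma array 1 gave 5, all high. It had 7.37 for Cldn5 (6.38 to 6.73 in the other 6), 8.1 for Kdr (6.85 to 7.35), 8.57 for Mfsd2a (8.02 to 8.09), 10.46 for Slc2a1 (9.85 to 10.09) and 6.88 for Vwf (5.86 to 6.26). Esam was at 6.15 and Rgs5 at 10.45 in cord plasma array 3, and Esam at 6.23 in PBS array 4. The remaining values were a high Ocln of 7.06 in young plasma array 4, a low Ocln of 6.34 in old plasma array 2, a high Itm2a of 8.26 in old plasma array 3 and a high Tagln of 5.81 in PBS array 5.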

How the results depend on the processing

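None of the 36 barrier genes passed an adjusted p of 0.05 in any comparison under any setting run, including leaving out each of the 28 arrays in turn. At an unadjusted p under 0.05, limma counted 1 for each comparison and 2 for cord against young plasma, and these counts moved. A filter at the 50th percentile gave 1 for cord against young (7.01% of all genes). Arrays centred on their medians gave 0 for young against PBS (10% of all genes), 0 for cord against old (4.51%), 0 for young against old (12.2%) and 1 for cord against young (9.16%). Array weights gave 2 for cord against old (5.78%) and 1 for cord against young (6.33%). With the replicate number as a block there were 3 for young against PBS (10.9%), 0 for cord against old (4.11%), 0 for young against old (6.91%) and 2 for the plasma mean (12.1%). Only 2 of 28 arrays correlated best with an array of their own number. Fitting the compared groups alone gave 2 for cord against PBS (9.26% of all genes), 3 for old against PBS (11.7%) and 4 for cord against old (5.48%). The authors' deposited p-values gave 0 for young against PBS (8.16% of named rows) and 3 of 37 for old against PBS (10.7%). Leaving out PBS array 4 and young plasma array 7 together, a setting chosen after seeing the data, gave 3 for cord (8.62% of all genes), 2 for young (10.5%) and 2 for old against PBS (10.7%), 4 for cord against old (5.07%), 2 for young against old (5.56%), 1 for cord against young (6.22%) and 3 for the plasma mean (11.8%). The causes were not tested.

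Leaving out 1 array gave counts of 1 to 2 for cord against PBS (2 without cord 6 or young 7), 0 to 3 for young against PBS (3 without young 4, 2 without PBS 1 or young 7, 0 without PBS 4, 6 or 7 or young 3, 5 or 6) and 1 to 2 for old against PBS (2 without PBS 3 or old 5). For cord against old the range was 0 to 4 (0 without cord 3 or 4, 3 without cord 6, 4 without young 7). For young against old it was 0 to 2 (0 without young 1 or old 5, 6 or 7, and 2 without young 4 or 7 or old 2). For cord against young it was 0 to 5 (0 without cord 1, 1 without cord 7 or young 1 or 7, 4 without young 5, 5 without young 4), and for the plasma mean 1 to 2 (2 without PBS 1 or 6 or young 4 or 7). With all arrays kept, 8.74%, 11.2% and 10.8% of all genes stood at an unadjusted p under 0.05 for cord, young and old against PBS. The share was 4.2% for cord against old, 6.53% for young against old, 7.22% for cord against young and 12.4% for the plasma mean. Shares with 1 array left out are not given here, so these counts are not read as a result about barrier genes. The difference of Pdgfrb for the plasma mean stayed between 0.16 and 0.20.

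Differences near 0 for the plasma mean against PBS changed sign. Rgs5 was 0.0141 as a mean over its rows, 0.0050 with centred arrays and 0.0365 without the pair of arrays. Cldn5 was 0.0123 with centred arrays and 0.1059 without the pair, and without the pair Abcb1a was 0.0106, Vwf 0.0574, Kdr 0.1897 and Cdh5 0.1119, which makes 6 of the 36 genes with a changed sign. Array weights gave -0.0196 for Slc2a1 and 0.0008 for Acta2. Leaving out 1 array gave -0.0605 to 0.0948 for Cldn5, -0.0299 to 0.0859 for Slc2a1, -0.1787 to 0.0442 for Vwf, -0.0442 to 0.0181 for Rgs5, -0.0776 to 0.0271 for Acta2 and -0.0905 to 0.0078 for Mfsd2a. Of the 630 pairs, 184 to 243 passed under every setting run, and 214 in the values reported. The 11 relations to marker lists became 5 without young plasma array 7, while the other settings gave 12 to 13.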
